A study of Mus musculus with 7 samples.

Results

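The glial lineage regulators followed here in the tumour cells of an implanted mouse glioma are Olig1, Olig2, Sox10, Sox9, Sox2, Pdgfra, Nkx2-2, Dll3 and Gfap, 9 of the 32285 genes counted. They were chosen by name, with results of these libraries already known: Olig1 had been seen to be near absent from 3 of the 7 libraries. Tumour cells were the barcodes with at least 2 UMIs (unique molecular identifiers, each marking 1 captured RNA molecule) summed over Egfr, Cdkn2a, Sox2 and Nes and 0 UMIs of Ptprc, C1qa, Cldn5 and Pecam1. The rule kept 24818 of the 48588 cells that passed the quality filters, from 1372 cells in UT to 5205 in IgG replicate 2. Sox2 is both a member and a gene of the rule, so its level in these cells is partly set by the choice of cells.

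The study grew NSCG-mCherry tumours, a mouse glioma line labelled as carrying EGFRvIII (a truncated, always active EGF receptor) and lacking Arf/Ink4a, in the brains of C57BL/6 mice aged 7 to 10 weeks. Whole tumours taken at about day 14 were run as droplet single-cell RNA libraries, each pooled from at least 2 mice, so the pooled library is the replicate here and spread between single mice could not be measured. All 7 libraries share the line and the host strain. UT (1 library) was untreated. IgG (2 libraries) received IgG2b, an isotype control antibody, at 10 mg/kg. BP (2 libraries) received 5 mg/kg of B20, which blocks VEGF, with 10 mg/kg of anti-PD-L1. Both IgG and BP were dosed every 3 days for 3 rounds. BPI (1 library) received the same pair with IPI-145, an inhibitor of the delta and gamma forms of PI3K, by daily gavage at 10 mg/kg. CD40 (1 library) received a CD40 agonist antibody at 100 µg per dose in 2 doses given every 5 days, and whether these mice also had a dendritic cell vaccine is not settled by the labels. One established line was implanted throughout, so the values describe that line and no other tumour.

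Olig1 and Olig2 are basic helix-loop-helix transcription factors that set up and maintain oligodendrocyte progenitors, and Olig2 also marks many gliomas. Nkx2-2 and Sox10 are transcription factors that drive these progenitors towards myelinating cells, and Pdgfra is the receptor through which PDGF keeps the progenitors dividing. Sox2 keeps neural stem cells undifferentiated, Sox9 starts gliogenesis and stays on in astrocytes, and Gfap encodes the intermediate filament typical of astrocytes. Dll3 encodes a Notch ligand that acts inside the cell as an inhibitor and is found in neural progenitors and in some gliomas.

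Positions follow GENCODE vM21 on GRCm38. Olig2 (16:91225457-91228677) and Olig1 (16:91269772-91271933) lie on the forward strand of 1 chromosome with 41094 bases between them. Gfap is at 11:102887336-102900912 (reverse strand), Sox9 at 11:112782224-112787760, Sox2 at 3:34650405-34652461, Sox10 at 15:79154908-79165240 (reverse), Pdgfra at 5:75152292-75198215, Nkx2-2 at 2:147177546-147194243 (reverse) and Dll3 at 7:28293553-28302238 (reverse). All 9 are protein-coding. Sox2 lies inside Sox2ot on the same strand, and Olig1, Pdgfra and Nkx2-2 overlap counted non-coding genes on the other strand. Whether the counting used strand is not stated in the sources used here, so the counts of these 4 genes are uncertain to that extent.

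RefSeq promoter windows (GRCm38.p6) were at hand for 6 of the 9 members: Olig2, Sox2, Pdgfra, Nkx2-2, Dll3 and Gfap. The 250 bases before the RefSeq start are shown for Olig2 (chr16:91225300-91225549, forward strand), Gfap (chr11:102897201-102897450, reverse strand) and Sox2 (chr3:34649745-34649994, forward strand). Among these 6, Olig2 and Gfap differed most in mean level between IgG replicate 1, BP replicate 2 and BPI and the other 4 libraries, as a ratio. Sox2 was present in every library. Sequences run 5′ to 3′ in lower case, and capitals mark matches on either strand to CANNTG (the E-box read by basic helix-loop-helix factors), ACAATG or ACAAAG (Sox-type motifs) or TATAAA (the TATA box).
Olig2: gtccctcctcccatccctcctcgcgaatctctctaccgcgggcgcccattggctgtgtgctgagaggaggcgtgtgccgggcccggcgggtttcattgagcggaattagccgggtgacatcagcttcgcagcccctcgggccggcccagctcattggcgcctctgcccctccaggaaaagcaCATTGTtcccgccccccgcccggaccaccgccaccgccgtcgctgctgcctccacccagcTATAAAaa
Gfap: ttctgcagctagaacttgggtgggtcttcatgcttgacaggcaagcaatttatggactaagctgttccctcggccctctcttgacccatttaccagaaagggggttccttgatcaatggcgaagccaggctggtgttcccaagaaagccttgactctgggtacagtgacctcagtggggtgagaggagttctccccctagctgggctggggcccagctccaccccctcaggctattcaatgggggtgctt
Sox2: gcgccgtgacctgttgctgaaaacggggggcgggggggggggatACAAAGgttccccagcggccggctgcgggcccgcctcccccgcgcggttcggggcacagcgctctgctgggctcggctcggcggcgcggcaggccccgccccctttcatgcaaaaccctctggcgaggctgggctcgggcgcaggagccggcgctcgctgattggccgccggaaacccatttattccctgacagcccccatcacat
The Olig2 window held 1 ACAATG match, read as CATTGT 68 bases before the start, and 1 TATAAA match 8 bases before it. GENCODE places the start of Olig2 inside this window. Sox2 held 1 ACAAAG match, 206 bases before the start. The Gfap window held no match to any of the 4 motifs. Of 32851 RefSeq windows of the same length, 66.2% held CANNTG, 16.5% ACAAAG, 12.4% TATAAA and 10.7% ACAATG. GC content was 66.8% for Olig2 and 55.6% for Gfap, against a median of 52.4% over all windows, and the windows of Olig2, Sox2 and Gfap held 22, 27 and 2 CG pairs. A match is a description of the letters only.

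Depth and purity bear on every value. The 7 libraries held 68997476 to 186793886 UMIs, tumour cells had a median of 10764 to 20179 UMIs, and UT drew on another list of cell barcodes than the rest, with 713553 barcodes listed against 1487060 to 2310016. Pairs of libraries shared 0 to 23 cell barcodes. Tumour genes were found together with the leukocyte or endothelial genes of the rule in 2379 cells of BP replicate 1, 1270 of UT, 1261 of CD40 and 960 of IgG replicate 2, and in 281 to 439 of the other 3 libraries, and the rule left these cells out. Within the cells kept, the summed level of 12 leukocyte markers was 90.6 CPM in UT, 77.8 in BP replicate 1 and 17.3 to 34.8 in the other 5 libraries, where CPM is the UMIs of a gene scaled to the summed UMIs of the tumour cells of its library. Cdkn2a, the gene of the Arf/Ink4a locus and 1 of the genes of the rule, was at 156.5 to 202.6 CPM in the 7 libraries, against a label of loss. Which part of the gene these counts come from, and which part the line lacks, is not given in the sources used here, so the counts do not check the label. The sum of 8 mature oligodendrocyte markers was 3.57 to 7.12 in IgG replicate 1, BP replicate 2 and BPI and 18.1 to 123.5 in the other 4 libraries, with Mag, Mobp and Ermn at 0 in IgG replicate 1. The sum of 6 resting astrocyte markers was 25.6 to 35.9 in the former and 202.9 to 788.4 in the latter, most of it from Aldoc, and without Aldoc 1.88 to 3.24 and 18.5 to 63.7. The sum of 9 mural cell and fibroblast markers was 5.05 to 8.06 in the former, 12.0 in UT and 31.9 to 45.0 in BP replicate 1, CD40 and IgG replicate 2. Their part in the results below was not tested, except where values without such cells are given. In summed values, fewer expressing cells and less RNA per cell cannot be told apart, so shares of cells are given too.

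**Figure D1:**
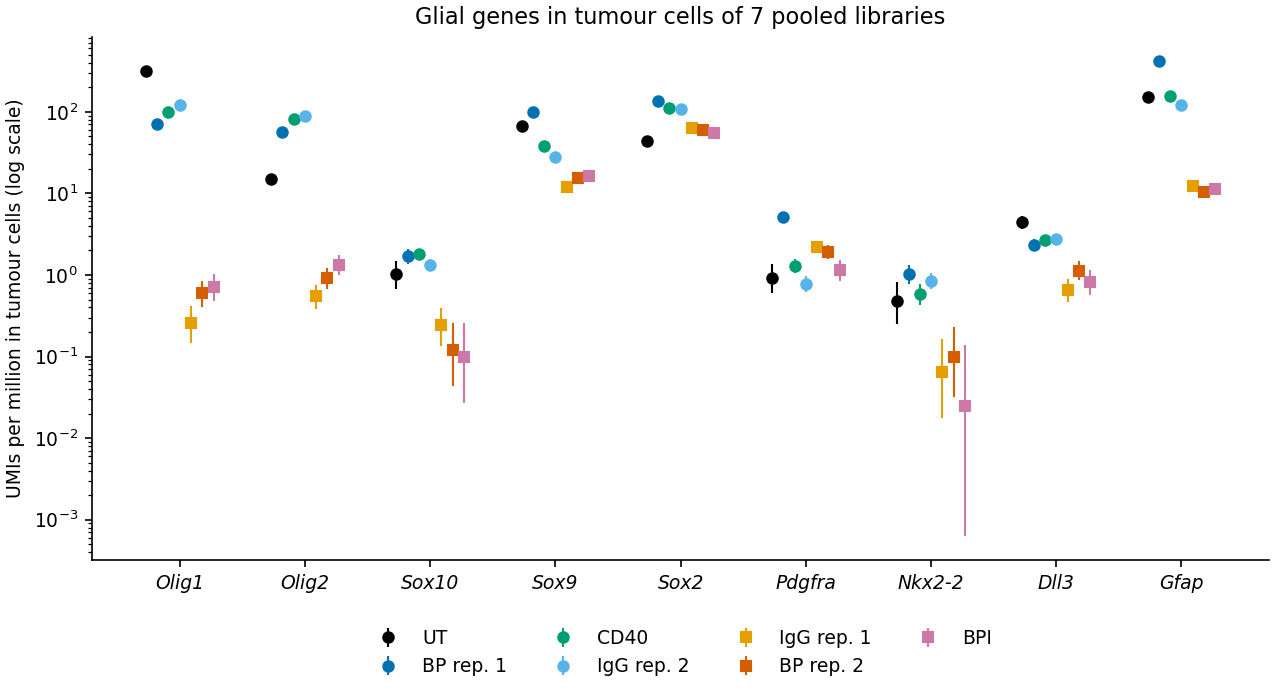
Levels in CPM in tumour cells (log scale) for each of the 9 genes, 1 point per pooled library, with exact Poisson intervals that cover counting error only. Squares mark IgG replicate 1, BP replicate 2 and BPI: Olig1 lies between 0.256 and 0.721 there and between 71.8 and 319.9 in the other 4 libraries, while Sox2 and Pdgfra overlap.

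Of the 9 genes, Olig1 and Olig2 split the 7 libraries most widely. The level of Olig1 was 319.9 CPM in UT, 119.6 in IgG replicate 2, 98.2 in CD40 and 71.8 in BP replicate 1. It was 0.721 in BPI, 0.596 in BP replicate 2 and 0.256 in IgG replicate 1, where 29, 30 and 16 UMIs were counted. The lowest of the first 4 libraries was 99.5 times the highest of these 3. The split ran through both replicated groups, since 1 IgG library and 1 BP library fell on each side. The 3 low libraries, called set A here, carry consecutive library numbers in the labels, and what these numbers record is not stated.

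Olig2, the neighbour of Olig1, was at 90.1 CPM in IgG replicate 2, 82.4 in CD40, 56.6 in BP replicate 1 and 14.8 in UT. In set A it was at 1.34 in BPI, 0.913 in BP replicate 2 and 0.545 in IgG replicate 1. The order of the high libraries was not that of Olig1, as UT was highest for Olig1 and lowest of the 4 for Olig2. The ratio of Olig1 to Olig2 UMIs was 21.6 in UT and 1.33, 1.27 and 1.19 in IgG replicate 2, BP replicate 1 and CD40. UT is also the library with the other barcode list, and the part of that in the ratio was not tested.

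Sox10 and Nkx2-2, the later factors of the lineage, were scarce everywhere. Sox10 was at 1.78 CPM in CD40, 1.69 in BP replicate 1, 1.33 in IgG replicate 2 and 1.03 in UT, against 0.240, 0.119 and 0.0995 in IgG replicate 1, BP replicate 2 and BPI. Nkx2-2 was at 1.03 in BP replicate 1, 0.846 in IgG replicate 2, 0.586 in CD40 and 0.476 in UT, against 0.0993, 0.0641 and 0.0249 in set A. The set A values of Nkx2-2 rest on 5, 4 and 1 UMIs, with exact Poisson intervals of 0.0322 to 0.232, 0.0175 to 0.164 and 0.000630 to 0.139. Both genes were lower in all 3 set A libraries than in any other.

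Pdgfra, the receptor of the progenitors, did not follow the split. It was at 5.21 CPM in BP replicate 1, 2.23 in IgG replicate 1, 1.93 in BP replicate 2, 1.30 in CD40, 1.14 in BPI, 0.916 in UT and 0.779 in IgG replicate 2. The intervals of UT (0.593 to 1.35) and BPI (0.838 to 1.53) overlapped each other and those of CD40 and IgG replicate 2, and BP replicate 1 stood above the rest (4.63 to 5.84).

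Among the astrocyte-side genes, Gfap was at 420.4 CPM in BP replicate 1, 155.1 in CD40, 150.2 in UT and 122.4 in IgG replicate 2. In set A it was at 12.4 in IgG replicate 1, 11.2 in BPI and 10.4 in BP replicate 2, and the 3 values lay close together. Sox9 was at 99.3 in BP replicate 1, 67.5 in UT, 38.4 in CD40 and 27.6 in IgG replicate 2, and at 16.2 in BPI, 15.5 in BP replicate 2 and 11.8 in IgG replicate 1. Neither gene overlapped between the sets, and BP replicate 1 was highest for both. Unlike Olig1 and Olig2, both remained readily counted in set A, with 451 to 776 UMIs of Gfap and 650 to 781 of Sox9 per library.

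Sox2 was at 136.2 CPM in BP replicate 1, 111.1 in CD40 and 107.2 in IgG replicate 2. It was at 62.8, 60.2 and 55.8 in IgG replicate 1, BP replicate 2 and BPI, and lowest at 44.2 in UT. The sets therefore overlapped for Sox2 through UT alone. Dll3 was at 4.43 in UT, 2.74 in IgG replicate 2, 2.66 in CD40 and 2.34 in BP replicate 1, against 1.13, 0.821 and 0.657 in BP replicate 2, BPI and IgG replicate 1, without overlap.

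In all, 7 of the 9 genes were lower in every set A library than in each of the other 4, Sox2 and Pdgfra being the exceptions. The background is wide: of 22310 genes with at least 10 UMIs, 26.3% were separated in the same direction and 8.21% in the other. The split was the ground on which the genes were chosen, so it is described with no test and nothing is read from the count. The log2 ratio of the mean level in set A to that in the other 4 libraries was -8.18 for Olig1 and -6.03 for Olig2. It was -4.22 for Gfap, -3.55 for Nkx2-2, -3.25 for Sox10, -2.01 for Sox9, -1.81 for Dll3, -0.74 for Sox2 and -0.22 for Pdgfra. Over all genes the median was -0.13, but there 1 CPM was added to each mean, which shrinks the ratios of scarce genes. The member ratios had no such addition, so they cannot be set directly against that median, least of all those of Nkx2-2, Sox10 and Dll3. With at least 1 Cdkn2a UMI required, or with cells of 3 or more mature oligodendrocyte UMIs left out, the ratio was -8.32 and -8.18 for Olig1 and -4.20 and -4.21 for Gfap. Pdgfra turned to 0.56 and 0.68 under these rules, to 0.83 with Sox2 left out of the rule, 0.10 with at least 4 UMIs required and 0.19 with leukocyte and endothelial UMIs allowed. Sox10 was at -2.64 and -2.57 under the first 2 rules. UT, BPI and CD40 are single libraries, each on 1 side of the split, so treatment and set cannot be told apart for them.

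Other genes of these lineages, taken from lists drawn up with earlier results of these data known, are set beside the same background. Of 20 oligodendrocyte progenitor genes, 15 were separated lower in set A and 0 higher. Ptprz1, a receptor phosphatase of progenitors, was at 63.7 to 100.9 CPM in the other 4 libraries and 0.978 to 1.23 in set A, and Sox5 at 39.6 to 65.1 against 0.673 to 1.41. Of 15 oligodendrocyte genes 13 were lower and of 18 astrocyte genes 12, with 0 higher in either list. The median log2 ratio, with 1 CPM added to each mean, was -1.34, -1.42 and -1.39 for the 3 lists. Of 13 other Sox genes, 8 of the 12 counted were lower, among them Sox1 and Sox21. Of 20 Notch pathway genes, the pathway Dll3 belongs to, 11 were lower and 1 was higher. Jag1, a Notch ligand, was at 23.7 to 46.8 against 5.32 to 6.05, and Mfng, which modifies Notch receptors, was the one higher, at 37.9 to 39.3 in set A against 8.63 to 21.8.

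Over the 7 libraries, the genes whose log2 level tracked Olig1 best, among those with a mean of 20 CPM or more, were Ddah2, Ckb and Cd81 (Pearson r = 0.999, 0.998 and 0.997). Gfap was tracked best by Hacd2, Jag1 and Tcf7l2 (r = 0.999, 0.998 and 0.997) and Pdgfra by Maml3, Pus7 and Btbd9 (r = 0.985, 0.984 and 0.977). These are the 3 highest of many genes over 7 points that share libraries and depth, and are given as a description.

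Single cells show how the levels were spread. At full depth, 82.4% of UT tumour cells, 64.0% of those of IgG replicate 2, 53.4% of CD40 and 43.9% of BP replicate 1 had an Olig1 UMI. In set A the share was 0.103% in IgG replicate 1, 0.661% in BP replicate 2 and 0.653% in BPI. Leukocytes, gated by Ptprc and C1qa without tumour genes, serve as the background and had 9.73% Olig1-positive cells in UT and 1.83% to 3.35% in BP replicate 1, CD40 and IgG replicate 2. They were shallower, with medians of 3218 to 7256 UMIs. In set A, 0 of 243, 612 and 1376 leukocytes of IgG replicate 1, BP replicate 2 and BPI had an Olig1 UMI, which allows shares of up to 1.23%, 0.490% and 0.218%. For Gfap, 49.6% of UT and 63.0% of BP replicate 1 tumour cells were positive beside 12.7% and 16.6% of their leukocytes, 51.4% and 48.6% in CD40 and IgG replicate 2 beside 2.90% and 1.60%, and 10.7% to 15.8% in set A beside at most 0.44%. Every tumour share of these 2 genes outside set A was thus above its leukocyte share, though at greater depth. Thinned to 6000 UMIs, nearer the leukocyte depth outside set A, Gfap was found in 29.1% of UT and 40.1% of BP replicate 1 tumour cells. It was found in 30.4% of those of CD40 and 27.7% of IgG replicate 2. Leukocytes with any UMI of the tumour genes of the rule were left out, so the background shares may be too low. Thinned to 3000 UMIs, near the depth of the set A leukocytes, 0.0534%, 0.224% and 0.115% of the set A tumour cells had an Olig1 UMI. These shares are under the limits that the leukocyte counts of 0 allow, so a difference from leukocytes was not detectable at this depth.

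The few Olig1-positive cells of set A numbered 4 in IgG replicate 1, 24 in BP replicate 2 and 23 in BPI, and none of their barcodes recurred in another library. Of these, 1, 9 and 7 cells (25.0%, 37.5% and 30.4%) also held a UMI of Wfdc2, a secreted protease inhibitor gene found in 84.1%, 84.6% and 84.9% of all tumour cells of these 3 libraries and in 0.21% to 1.68% elsewhere. Olig2 UMIs were found in 2, 8 and 11 of them. The highest count in a single cell was 9, 3 and 2 Olig1 UMIs, against 34 to 67 in the other 4 libraries.

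To compare shares at equal depth, each cell was thinned to 3000 UMIs, which left 1336 to 5119 cells per library. Olig1 was then detected in 51.0% of UT, 26.6% of IgG replicate 2, 22.5% of CD40 and 16.5% of BP replicate 1 cells, and Olig2 in 4.34%, 21.0%, 19.5% and 13.9%. Gfap was detected in 29.3% of BP replicate 1 cells, 18.7% to 19.3% of the cells of UT, CD40 and IgG replicate 2 and 2.64% to 3.66% in set A. Sox2 was detected in 13.2% of UT, 14.9% to 17.0% of set A and 26.4% to 31.0% of the other 3 libraries. Outside set A, the order of libraries by share was that of the summed levels for Olig1 and Olig2.

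**Figure D2:**
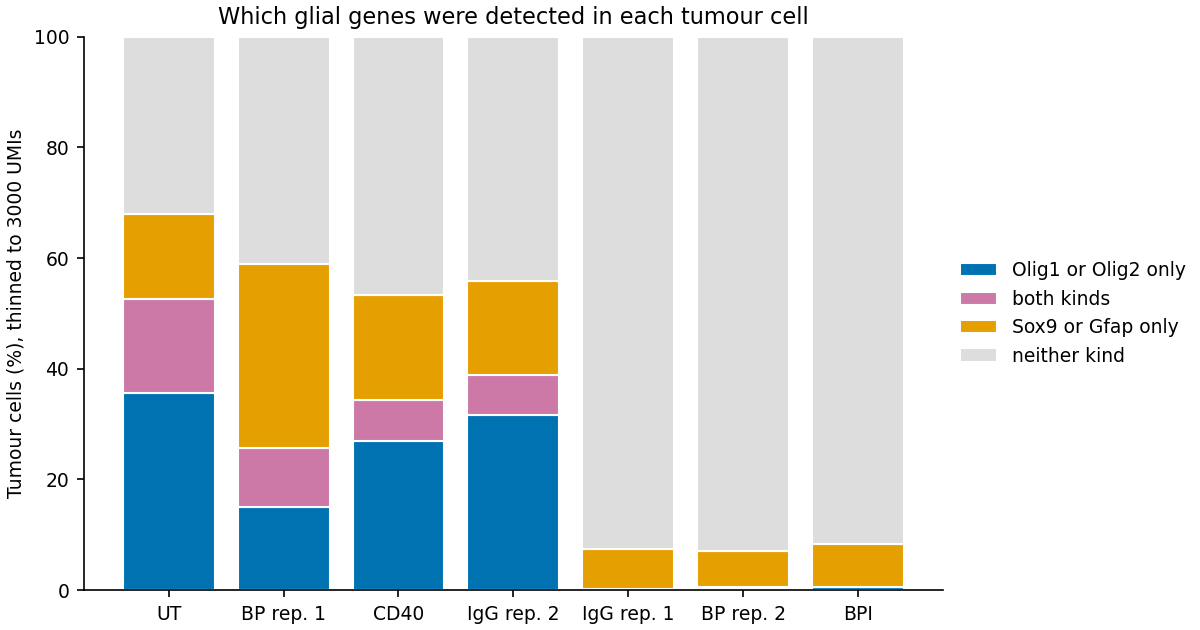
Percentage of tumour cells, each thinned to 3000 UMIs, in which only Olig1 or Olig2, only Sox9 or Gfap, both kinds or neither kind was detected, for each library. Neither kind makes up 91.7% to 92.9% of IgG replicate 1, BP replicate 2 and BPI and 32.0% to 46.7% of the other 4 libraries. A gene present in a cell can be missed at this depth.

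Combinations were then read from the same thinned cells. Cells with Olig1 or Olig2 but neither Sox9 nor Gfap made up 35.7% of UT, 31.6% of IgG replicate 2, 26.9% of CD40 and 15.1% of BP replicate 1. Cells with Sox9 or Gfap alone made up 33.2% of BP replicate 1 and 15.3% to 18.9% of the other 3, and cells with both kinds 7.27% to 17.0%. In set A, cells with both kinds made up 0.027% to 0.056%, and 6.62% to 7.80% had Sox9 or Gfap alone. BP replicate 1 was the 1 library outside set A in which the astrocyte side outnumbered the Olig side. These classes describe detection at the thinned depth, where a gene present in a cell can be missed. At full depth, single pairs outside set A already shared more cells. Olig2 and Sox9 met in 887 of 2709 tumour cells of BP replicate 1, and Olig1 and Sox9 in 653 of 1372 of UT. Olig1 and Gfap met in 1383 of 5205 of IgG replicate 2, and Olig2 and Gfap in 1147 of 4502 of CD40. Thinned cells with both kinds numbered 280, 227, 372 and 329 in these libraries, in the same order.

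Olig1 and Olig2 were found in the same cell more often than the product of their shares in each of the 4 libraries, by 2.02 times in BP replicate 1 (122 cells), 1.74 in CD40 (335), 1.57 in IgG replicate 2 (450) and 1.22 in UT (36). Olig2 and Gfap fell short of the product, at 0.72 to 0.89 times. Olig1 and Gfap were at 0.62 in IgG replicate 2, 0.71 in CD40 and 0.85 in UT but at 1.10 in BP replicate 1. Sox9 and Gfap exceeded it at 1.16 to 1.33 times. These ratios come from cells of single libraries and carry no test; the differences are tested below over libraries.

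Sox10, Pdgfra and Nkx2-2 sat in few cells. In BP replicate 1, Sox10 was found in 31 cells, Nkx2-2 in 36 and Pdgfra in 59 of 2709, with at most 11, 5 and 33 UMIs in a cell. Thinned cells with both Sox10 and Pdgfra numbered 8 in BP replicate 1, 3 in IgG replicate 2, 2 in CD40 and 1 each in UT and IgG replicate 1, which is 30.8 to 90.3 times the product of the shares. In IgG replicate 1, by contrast, Pdgfra UMIs were spread over 126 cells with at most 8 UMIs each, and 114 of them had Wfdc2. In BP replicate 1, 0 of 59 Pdgfra-positive cells had Wfdc2. It was found in 0.295% of all tumour cells of that library and in 84.1% of those of IgG replicate 1. Of the Pdgfra-positive cells, 7 of 42 in CD40 (16.7%), 2 of 30 in IgG replicate 2 (6.67%) and 0 of 11 in UT had Wfdc2. Among all tumour cells the shares with Wfdc2 were 0.466%, 0.211% and 1.68%. Pdgfra-positive cells with at least 2 summed UMIs of the fibroblast markers Col1a1, Col1a2 and Dcn were also counted. They numbered 5 of 42 in CD40, 2 of 30 in IgG replicate 2, 2 of 59 in BP replicate 1 and 0 elsewhere. The part of fibroblasts in the Pdgfra values was not tested. Cells with 3 or more mature oligodendrocyte UMIs made up 0% to 0.11% of set A and 0.31% to 2.48% of the other libraries. In BP replicate 1 they were 20 of 2709 cells, but 14 of 31 Sox10-positive, 13 of 59 Pdgfra-positive and 13 of 36 Nkx2-2-positive cells. Of the Sox10-positive cells they were 5 of 14 in UT, 12 of 85 in CD40 and 7 of 87 in IgG replicate 2. In the same order they were 2 of 11, 3 of 42 and 1 of 30 Pdgfra-positive cells. Of the Nkx2-2-positive cells they were 3 of 8, 2 of 44 and 3 of 82. The part of such cells in the combinations of these genes was not tested.

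The first tests asked whether the treatments changed these genes, with UMIs summed per library over tumour cells and compared by edgeR's quasi-likelihood test with Benjamini-Hochberg adjustment over 19733 genes. For BP against IgG no member and no gene passed an adjusted p of 0.05 (0.0% called), with 345 genes at an unadjusted p under 0.05 and 46 called by DESeq2. BPI against IgG likewise called 0 genes (0.0%; 185 unadjusted, 7 by DESeq2), and CD40 against IgG 0 (0.0%; 23 unadjusted, 0 by DESeq2), with 0 of 9 members in each. The spread of the single BPI and CD40 libraries was taken from the replicated groups, and all 3 comparisons share the IgG libraries. The p-values measure the spread between pooled libraries.

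In BP against IgG the largest log2 differences were 1.60 ± 1.73 (SE) for Gfap and 1.46 ± 0.86 for Sox9, then 1.13 ± 0.81 for Pdgfra. Olig1 was at -0.79 ± 2.61 and Olig2 at -0.72 ± 2.34, all with an edgeR adjusted p of 1. Set A was named from its low Olig1, and Olig2 split the same libraries, so a set covariate was bound to take up their spread. With the library set as a covariate the SE of Olig1 fell from 2.61 to 0.42 and of Olig2 from 2.34 to 0.35. The differences were then -0.15 for both genes, 0.77 ± 0.42 for Gfap (edgeR adjusted p = 0.75) and 1.11 ± 0.33 for Sox9 (0.49), and 0 genes were called. Sox9 was at 15.5 in BP and 11.8 in IgG inside set A, and at 99.3 in BP and 27.6 in IgG outside it, where the BP and the IgG library do not have neighbouring library numbers. Olig1 went opposite ways, at 0.596 in BP and 0.256 in IgG inside set A and at 71.8 and 119.6 outside it. A p that misses the threshold does not show that the groups were alike.

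**Figure D3:**
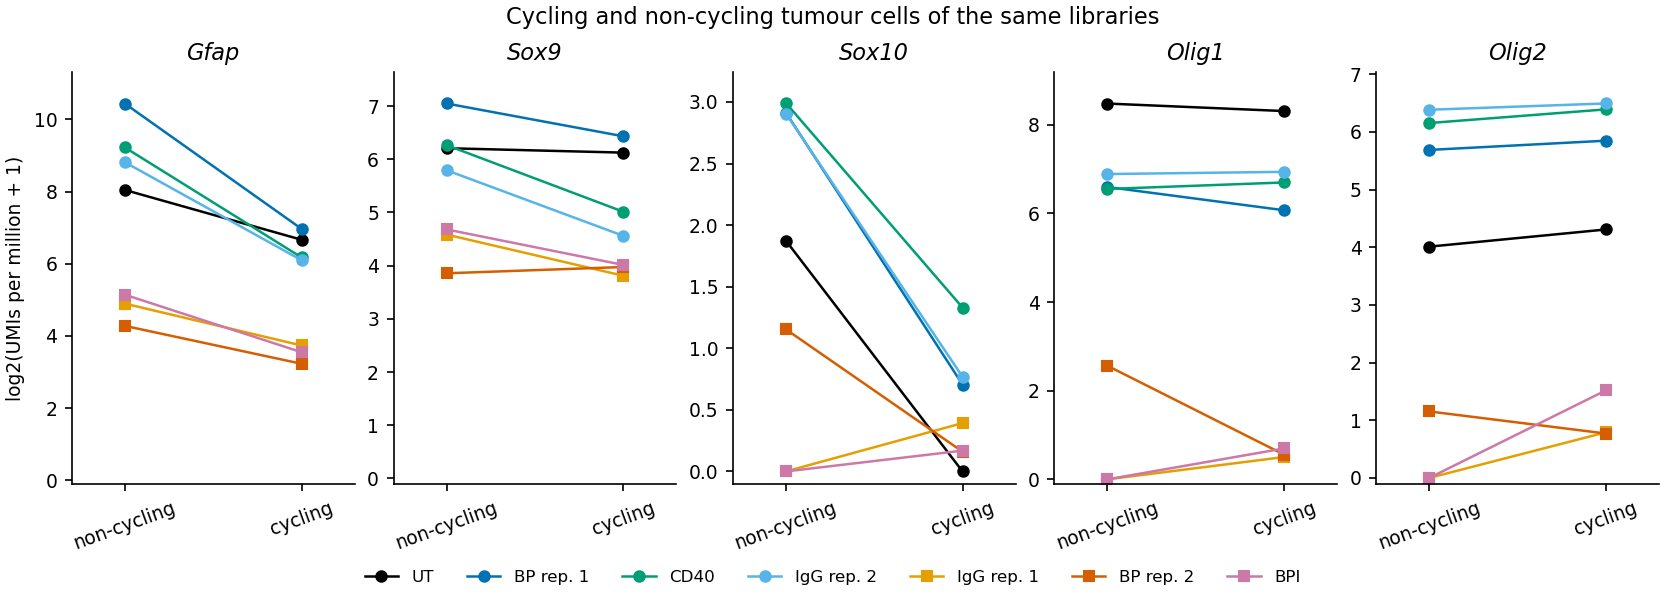
Levels of 5 genes as log2(CPM + 1) in non-cycling and cycling tumour cells of the same library, 1 line per library, on cells thinned to 3000 UMIs. Gfap falls in all 7 libraries, from 1387 to 124.0 in BP replicate 1 at the widest, while Olig1 outside set A goes both ways.

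Tumour cells with and without UMIs of cell-division genes, in the same libraries, differed in Gfap, Sox9 and Sox10 and not detectably in Olig1 and Olig2. Cells with 2 or more thinned UMIs of Mki67, Top2a, Cenpf, Birc5 and Ube2c (18102 cells) were set against cells with 0 (2935), called non-cycling here, with the library as a block in edgeR. The second class depends on depth: at 6000 UMIs it held 25, 65 and 69 cells of IgG replicate 1, BP replicate 2 and BPI, against 174, 272 and 311 at 3000. Gfap was at 124.0 in cycling and 1387 in non-cycling cells of BP replicate 1, 71.2 and 596.5 in CD40, 67.5 and 448.8 in IgG replicate 2 and 100.4 and 263.1 in UT. It was at 12.3 and 28.7, 8.36 and 18.4, and 10.7 and 34.3 in IgG replicate 1, BP replicate 2 and BPI. Gfap was thus lower in cycling cells in 7 of 7 libraries, with a log2 difference of -2.51 ± 0.24 (SE) and an edgeR adjusted p of 2.60e-06. These are summed levels: outside set A, the 1% of tumour cells richest in Gfap held 25.7% to 33.1% of its UMIs at full depth. The part of such cells in the fall was not tested.

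Sox9 was lower in cycling cells in 6 of 7 libraries, by -0.79 ± 0.14 (edgeR adjusted p = 0.00136). It was at 85.3 in cycling and 131.3 in non-cycling cells of BP replicate 1, 31.3 and 75.9 in CD40, and 22.6 and 54.5 in IgG replicate 2. In UT the 2 values were 68.8 and 72.9, in IgG replicate 1 they were 13.0 and 23.0, in BPI 15.2 and 24.7, and BP replicate 2 went the other way with 14.7 and 13.5. Both genes also passed with at least 1 Cdkn2a UMI required (-2.56 for Gfap and -0.56 for Sox9) and without cells of 3 or more mature oligodendrocyte UMIs (-2.53 and -0.84).

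Sox10 differed by -2.72 ± 0.51 (edgeR adjusted p = 0.00168), on 31 UMIs in cycling and 40 in non-cycling cells over all libraries, and was lower in 5 of 7. The direction rests on 1 UMI in each class in BP replicate 2 and on 0 and 3 UMIs in UT. IgG replicate 1 and BPI had 0 UMIs in non-cycling cells. Without the cells carrying mature oligodendrocyte UMIs, or with a Cdkn2a UMI required, Sox10 no longer passed the low-count filter and was not tested. Olig1 differed by -0.16 ± 0.13 (edgeR adjusted p = 0.467), Olig2 by 0.18 ± 0.11 (0.331), Sox2 by -0.15 ± 0.07 (0.177) and Dll3 by -0.08 ± 0.44 (0.946). Outside set A, Olig1 was at 316.1 in cycling and 355.6 in non-cycling cells of UT, 121.6 and 117.4 in IgG replicate 2, 102.8 and 92.8 in CD40 and 66.2 and 95.7 in BP replicate 1. Pdgfra and Nkx2-2 were below the filter. In some alternatives Pdgfra or Nkx2-2 passed the filter and was called lower. At 6000 UMIs 8 members were tested and 4 were lower, and with a Cdkn2a UMI required 6 and 3.

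Of the 7 members tested, 3 were lower and 0 higher in cycling cells, beside 10.3% lower and 7.8% higher of 12413 genes. Genes of other lists moved as well: 11 of 13 progenitor, 12 of 13 oligodendrocyte and 13 of 17 astrocyte genes tested were lower and 0 of each were higher. Further lists were more mixed. Of 11 neural stem cell genes tested 5 were lower and 2 higher, and of 16 Notch genes 3 were lower and 1 higher. Of 9 basic helix-loop-helix partners 3 were lower and 1 higher. Pax6 was higher by 0.60 to 0.94 under 14 alternatives, and its call was lost in 0 of them. Mog, a myelin gene, was lower by -6.12 ± 0.83, Gja1, the astrocyte gap junction gene, by -4.75 ± 0.72 and C1ql1 by -4.36 ± 0.53 (edgeR adjusted p = 0.000145, 0.000373 and 0.000114). Of the 4 genes with the largest differences in each list, some were not called by DESeq2. In the oligodendrocyte list these were all 4, Mog (-5.02, adjusted p = 0.0812), Ermn (-4.99, 0.347), Opalin (-3.98, 0.515) and Mag (-3.92, 0.177). In the progenitor list they were Lhfpl3 (-1.49, 0.119) and Cspg4 (-1.46, 0.0949). Outside the progenitor, oligodendrocyte and astrocyte lists they were Nrxn3 (-1.24, 0.220), Notch3 (-0.58, 0.129), Msi1 (-0.46, 0.109), Id1 (0.28, 0.105), Jag1 (-0.64, 0.0791) and Fabp7 (-0.52, 0.0695). With a Cdkn2a UMI required, calls were lost for Slc1a2 (-0.75, edgeR adjusted p = 0.0794) and Slc1a3 (-0.43, 0.258), glutamate transporter genes of astrocytes. With 1 library left out in turn they were at -3.59 to -2.37 and -2.40 to -1.85. Aqp4, an astrocyte water channel gene, lost its call without CD40 (-2.27, edgeR adjusted p = 0.130) and without IgG replicate 2 (-2.42, 0.123). The median log2 difference was -4.32 for the oligodendrocyte list, -1.26 for the astrocyte list and -1.13 for the progenitor list, against 0.00 over all genes. Normal oligodendrocytes and astrocytes express the genes of these lists and rarely divide, and the part of such cells in the fall of Gfap and Sox9 beyond the 2 stricter rules above was not tested.

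**Figure D4:**
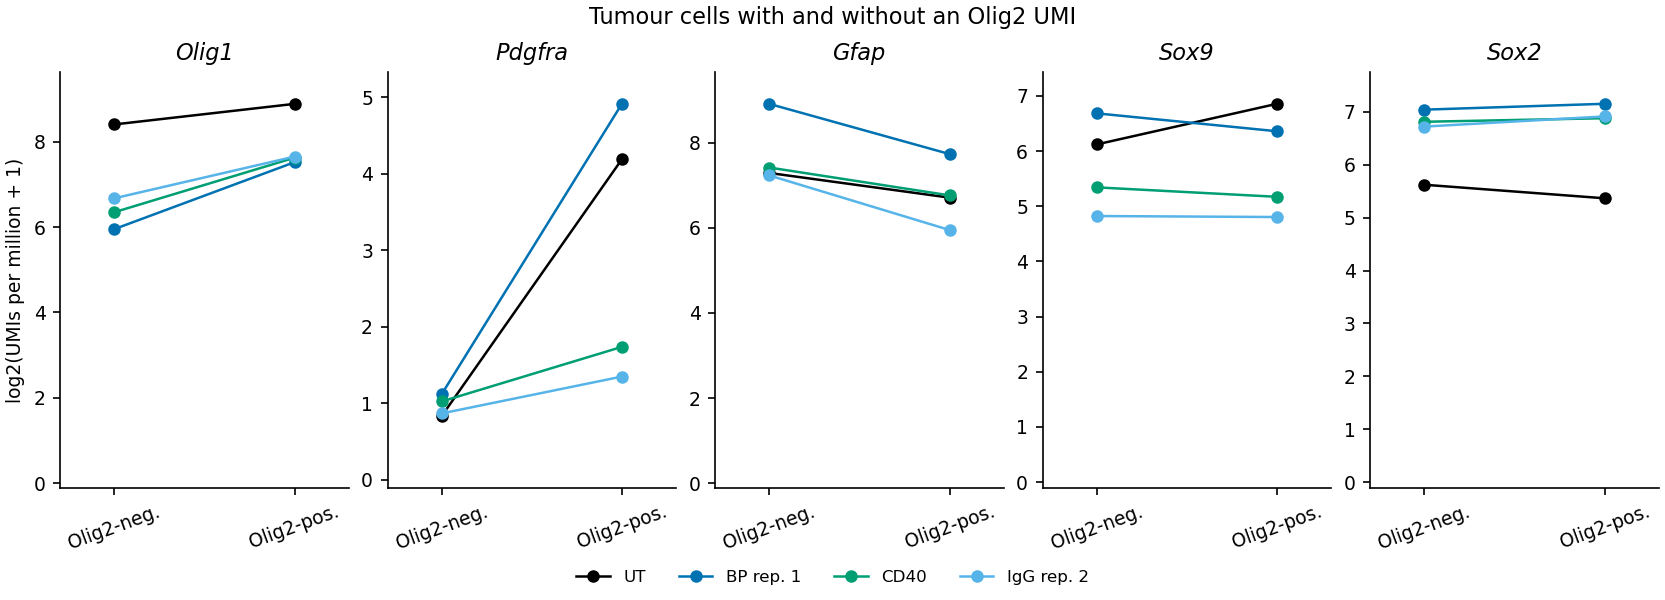
Levels of 5 genes as log2(CPM + 1) in tumour cells without and with an Olig2 UMI after thinning to 3000 UMIs, 1 line for each of the 4 libraries with at least 20 cells in both classes. Olig1 and Pdgfra rise and Gfap falls in 4 of 4 libraries, while Sox9 and Sox2 go both ways. Pdgfra rests on 3 to 6 UMIs in the positive cells of UT, CD40 and IgG replicate 2.

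Cells in which Olig2 was detected were compared with the other tumour cells of their library. Only UT, BP replicate 1, CD40 and IgG replicate 2 had 20 or more such cells (2358 positive against 11142 negative), since set A had 7, 10 and 15. At 6000 UMIs BPI had 27 and was used as well, so that alternative differs in libraries as well as depth. Olig1, the gene next to Olig2, was at 471.4 in positive and 337.2 in negative cells of UT, 182.2 and 60.8 in BP replicate 1, 196.1 and 80.3 in CD40 and 199.7 and 100.9 in IgG replicate 2. It was higher in 4 of 4 libraries, with a log2 difference of 1.05 ± 0.09 (SE) and an edgeR adjusted p of 3.16e-09.

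Gfap was lower in Olig2-positive cells in 4 of 4 libraries, by -1.08 ± 0.08 (edgeR adjusted p = 4.52e-10). Its level was 103.5 in positive and 155.2 in negative cells of UT, 211.4 and 479.9 in BP replicate 1, 107.4 and 169.6 in CD40 and 60.7 and 149.1 in IgG replicate 2. Pdgfra was higher in 4 of 4, by 2.71 ± 0.58 (edgeR adjusted p = 0.00427), at 29.2 and 1.17 in BP replicate 1, 17.2 and 0.782 in UT, 2.33 and 1.03 in CD40 and 1.55 and 0.825 in IgG replicate 2. The UT value rests on 3 UMIs in each class. In positive and negative cells there were 6 and 11 UMIs in CD40 and 5 and 10 in IgG replicate 2. Of the 46 UMIs in positive cells, 32 came from BP replicate 1, so the direction in the other libraries rests on few counts. Without BP replicate 1 Pdgfra did not pass the filter, without cells of 3 or more mature oligodendrocyte UMIs it was higher by 1.75 (edgeR adjusted p = 0.0328), and it was short of the threshold with Sox2 left out of the rule (1.23, edgeR adjusted p = 0.413) and at 6000 UMIs (2.07, 0.0610). With a Cdkn2a UMI required Pdgfra was not tested, as it did not pass the filter.

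Sox10 was at 1.59 ± 0.54 (edgeR adjusted p = 0.132), Sox9 at -0.18 ± 0.11 (0.568), Sox2 at 0.07 ± 0.07 (0.827) and Dll3 at -0.16 ± 0.47 (0.959). Sox10 passed at 6000 UMIs (1.86, edgeR adjusted p = 0.0281) and with no low-count filter (0.0480), and Sox9 with a Cdkn2a UMI required (-0.35, 0.0468). Of the 7 members tested, 2 were higher and 1 was lower, beside 1.08% higher and 2.14% lower of 13084 genes. Of 16 progenitor genes tested 7 were higher and 0 lower, led by Lhfpl3 (3.18 ± 0.43), Tnr (2.83 ± 0.44), an extracellular matrix gene, and Opcml (2.73 ± 0.45). Under DESeq2 the calls of Lhfpl3 (2.80, adjusted p = 0.339) and Opcml (2.69, 0.508) were lost, while that of Tnr was lost in 0 of 11 alternatives. Mature oligodendrocyte genes moved beside them: of 12 tested 2 were higher and 0 lower, with a median log2 difference of 0.99 against 0.57 for the progenitor list. Cldn11, a myelin tight junction gene, was higher by 1.71 ± 0.38 (edgeR adjusted p = 0.00659), a call lost in 4 of 10 alternatives. Of 9 other Sox genes 3 were higher, and the call was lost in 4 of 11 alternatives for Sox21, 4 of 11 for Sox5 and 1 of 11 for Sox11. Without CD40 the difference was 0.49 for Sox21 (edgeR adjusted p = 0.424) and 0.38 for Sox5 (0.209), and without IgG replicate 2 it was 0.67 for Sox21 (0.0766). Of 18 Notch genes 0 passed in either direction. Of 10 neural stem cell genes 2 were higher and 2 lower, and of 16 astrocyte genes 1 was higher and 2 were lower. Of the calls in these lists, those of Nfia, Apoe, Hmga2 and Nes were each lost in 6 of 11 alternatives and that of Cd44 in 5 of 11. All of these were lost under DESeq2, while that of Fabp7 was lost in 0 of 11. Fabp7, a fatty acid binding protein of neural progenitors, was higher by 0.77 ± 0.07 (edgeR adjusted p = 2.99e-08), and Vim, an intermediate filament gene, was lower by -0.47 ± 0.07 (2.40e-05). The Vim call was lost at 6000 UMIs (-0.33, edgeR adjusted p = 0.196), without CD40 (-0.35, 0.0628) and under DESeq2 (-0.41, 0.0693).

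**Figure D5:**
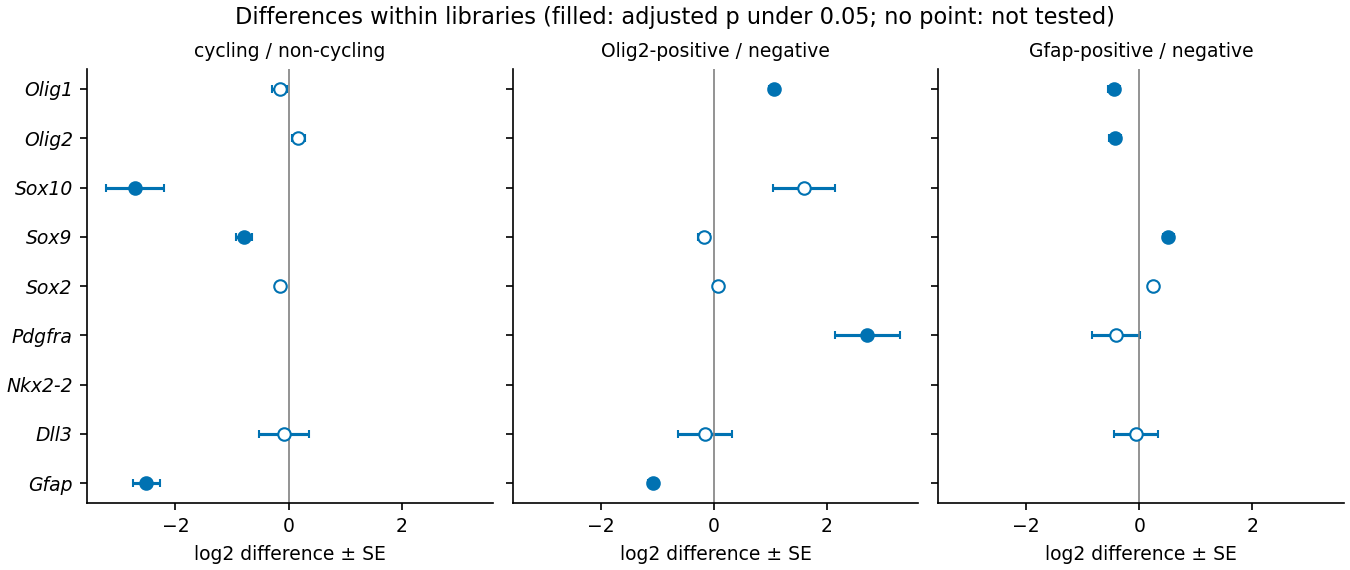
Log2 differences from edgeR for the members tested in the 3 comparisons within libraries, 1 point per gene, with standard errors derived from its F statistic. Filled points have an adjusted p under 0.05: Gfap, Sox9 and Sox10 between cycling and non-cycling cells, Olig1, Pdgfra and Gfap by Olig2, and Olig1, Olig2 and Sox9 by Gfap.

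The reverse view, cells with and without a Gfap UMI (3192 and 21105 cells, all 7 libraries), gave smaller differences. Sox9 was higher in Gfap-positive cells in 6 of 7 libraries, by 0.51 ± 0.10 (SE, edgeR adjusted p = 0.00179). It was at 137.6 in positive and 83.0 in negative cells of BP replicate 1, 52.5 and 35.4 in CD40, 32.4 and 26.0 in IgG replicate 2 and 87.7 and 66.6 in UT. In set A it was at 17.0 and 13.3 in IgG replicate 1, 16.3 and 15.9 in BPI and 10.6 and 14.5 in BP replicate 2, on 3 to 7 UMIs in the positive cells.

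Olig1 was lower by -0.45 ± 0.10 (edgeR adjusted p = 0.00724) and Olig2 by -0.43 ± 0.10 (0.0122). Olig1 was at 273.4 in positive and 359.5 in negative cells of UT, 73.6 and 109.9 in CD40 and 71.8 and 133.2 in IgG replicate 2, but at 78.9 and 77.1 in BP replicate 1. Neither gene had a UMI in the Gfap-positive cells of set A. Both calls were lost with a Cdkn2a UMI required (edgeR adjusted p = 0.0534 and 0.0502), without cells of 3 or more mature oligodendrocyte UMIs (0.0532 and 0.177), without IgG replicate 2 (0.134 and 0.185) and under DESeq2 (0.199 and 0.269). That of Olig1 was also lost at 1500 and 6000 UMIs (edgeR adjusted p = 0.0563 and 0.0698) and that of Olig2 without CD40 (0.171). In these settings the differences were -0.31 to -0.41 for Olig1 and -0.26 to -0.43 for Olig2. Sox2 was at 0.24 ± 0.08 (edgeR adjusted p = 0.0762) and passed under 6 of the alternatives, while Pdgfra and Dll3 were at -0.41 ± 0.42 (0.694) and -0.07 ± 0.39 (0.982).

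Of the 6 members tested by Gfap, 1 was higher and 2 were lower, beside 3.01% higher and 2.25% lower of 13238 genes, and DESeq2 called none of them. Of 17 astrocyte genes 6 were higher and 0 lower, among them Atp1b2 (1.53 ± 0.17), a sodium pump subunit, and Aldoc (1.22 ± 0.15), a glycolytic enzyme of astrocytes. Of 13 progenitor genes 5 were higher, such as C1ql1 (3.91 ± 0.51), and 2 lower, Opcml (-2.88 ± 0.40) and Lhfpl3 (-1.78 ± 0.32). Both of these calls were lost with Sox2 left out of the rule (-0.10, edgeR adjusted p = 0.967, and -0.36, 0.742), without cells of 3 or more mature oligodendrocyte UMIs (-0.94, 0.303, and -1.37, 0.0783) and under DESeq2 (-2.30, 0.0514, and -1.67, 0.247). Of 10 mature oligodendrocyte genes 1 was higher and 2 were lower, with a median log2 difference of -1.40, against 0.30 for the progenitor and 0.32 for the astrocyte list. Mog was lower by -2.77 ± 0.77 (edgeR adjusted p = 0.0338), a call lost in 3 of 9 alternatives, and Cnp, a myelin enzyme gene, was higher by 0.64 ± 0.11 (0.000438). Of 18 Notch genes 3 were higher and 0 lower, namely Maml2 (0.52 ± 0.08), Notch3 (0.47 ± 0.13) and Notch1 (0.36 ± 0.08). The Notch3 call was lost in 10 of 14 alternatives, among them those without BP replicate 1, BPI, CD40 or IgG replicate 2 (0.43, 0.44, 0.49 and 0.41, edgeR adjusted p = 0.165, 0.0572, 0.101 and 0.180) and without oligodendrocyte-marker cells (0.16, 0.635). The 3 comparisons within libraries draw on the same cells, so their calls are not independent of one another.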

How the data were processed

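The data are droplet single-cell RNA libraries, 7 in all, each made from whole tumours pooled from at least 2 mice. The authors deposited, per the file headers, whole-number UMI count matrices from Cell Ranger over all listed barcodes, with no filter on cells. The submitters' processing notes name Cell Ranger 7.0.1 and the build mm10, while the header of the matrices names an earlier release. Members and gene lists were chosen with earlier results of these data known.

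A barcode was taken as a cell from 1000 UMIs and 500 genes upwards, unless over 15% of its UMIs were mitochondrial. Doublets were scored with Scrublet in scanpy 1.11.5, and the highest-scoring 0.8% per 1000 cells were removed (4.50% to 8.44% per library). CPM values divide the UMIs of a gene by all UMIs of the tumour cells, and intervals are exact 95% Poisson or Clopper-Pearson ones that cover counting error only. Shares, combinations and cell classes used cells thinned to 3000 UMIs. A count of 0 allows up to 3 counts.

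UMIs were summed per library, or per library and class, and tested with edgeR 4.0.16 (quasi-likelihood, R 4.3.3) over all genes past its low-count filter, with Benjamini-Hochberg adjustment and a threshold of 0.05. The SEs given are the absolute log2 difference divided by the square root of the quasi-likelihood F statistic, as edgeR itself returns none. Treatment fits used IgG, BP, BPI and CD40. Comparisons of cell classes used the library as a block and libraries with at least 20 cells per class. DESeq2 1.42.0, no low-count filter, other tumour rules, other thinning depths and each library left out (for the treatments, each IgG and BP library) were the alternatives. Rules that require a Cdkn2a UMI, leave out oligodendrocyte-marker cells or allow leukocyte UMIs, and the crossed pairing, were added after seeing the data.

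Named genes are all 9 members, up to 4 genes per list and comparison with the largest differences past the test or largest ratios between the sets, and the 3 genes most correlated with Olig1, Gfap and Pdgfra. Counts over lists in the tests cover the genes of the list that passed the filter. Sox1, Sox11 and Sox21 fall under the list of Sox genes. Wfdc2 is outside this rule and was chosen after its values were seen. A gene that the rule would also name is not reported here.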

Additional observations from a re-analysis of the deposited data

How the results depend on the processing

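Only 2 libraries per replicated group, with 1 of each in set A, limit the treatment comparisons, and Sox10, Pdgfra, Nkx2-2 and Dll3 are limited by few UMIs. DESeq2 called 46 genes for BP and 7 for BPI against IgG, none a member. By Olig2, 421 genes were called, 168 by DESeq2 and 103 at 1500 UMIs. By Gfap, 697 were called, 276 by DESeq2 and 1084 with no low-count filter. Leaving out each library in turn gave 1312 to 2368 genes for cycling (1312 without IgG replicate 2, 1387 without CD40). By Olig2 it gave 74 to 448 (74 without CD40, 178 without IgG replicate 2) and by Gfap 351 to 776 (351 without CD40, 437 without IgG replicate 2). In the treatment fits only the IgG and BP libraries were left out in turn, which left 1 library in the group.

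The numbers of the IgG and BP libraries share only a digit: the deviations of same-numbered libraries correlated at -0.70 over 21314 genes. With the replicate block 0 genes were called for BP (165 at an unadjusted p under 0.05) and with the crossed pairing 0 (1214 unadjusted, edgeR). Under the replicate block the log2 difference was 0.12 for Olig1 and -0.28 for Sox10, and under the crossed block -0.20 for Sox10.

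Of 46 changes of direction in tested differences, 31 were in BP against IgG, where no member was called, and 5 further ones were of the Pdgfra set ratio. Calls of named genes missed the threshold 172 times over all alternatives and comparisons. Sox10 (0.13) was at -0.63 with Sox2 out of the rule, -0.11 with 4 UMIs, -0.10 with a Cdkn2a UMI, -1.30 without oligodendrocyte-marker cells, -0.24 with leukocyte UMIs allowed and -0.20 with the set as covariate. Nkx2-2 (0.25) was at -0.47, -0.19 and -0.65 with Sox2 out of the rule, with a Cdkn2a UMI and without oligodendrocyte-marker cells. Dll3 (0.02) was at -0.064, -0.026 and -0.043 under these, -0.026 with leukocyte UMIs allowed and -0.58 with UT pooled with IgG. Leaving out 1 library in turn gave -6.45 to 6.87 for Olig1, -5.43 to 5.46 for Olig2, -2.54 to 1.67 for Sox10, -0.20 to 2.21 for Sox9, -0.36 to 0.55 for Sox2, -2.01 to 2.88 for Nkx2-2, -0.63 to 1.24 for Dll3 and -2.50 to 3.86 for Gfap.

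Within libraries, Olig2 between cycling and non-cycling cells was at -0.035 at 1500 UMIs. Dll3 was at 0.34 at 6000 UMIs for cycling and from -0.22 to 0.17 with 1 library left out. By Olig2, Dll3 was at 0.31 at 6000 UMIs, 0.22 with Sox2 out of the rule, 0.048 with a Cdkn2a UMI, 0.30 without oligodendrocyte-marker cells and from -0.35 to 0.16 with 1 library left out. There Sox9 was at 0.068 without oligodendrocyte-marker cells, and Sox2 at -0.018 with Sox2 out of the rule. By Gfap, Dll3 was at 0.38 with a Cdkn2a UMI, 0.21 without oligodendrocyte-marker cells, 0.079 under DESeq2 and from -0.23 to 0.13 with 1 library left out. The causes were not tested.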

Other observations

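Genes that act beside the members, from lists drawn up with earlier results known, were also read between set A and the other 4 libraries, as values with no test, beside the 26.3% of all genes separated lower. Of 14 genes of PDGF and receptor tyrosine kinase signalling and its feedback, 8 were lower in set A and 0 higher. Etv5, a transcription factor induced by this signalling, was at 272.4 to 326.5 CPM in the other libraries and 42.2 to 62.8 in set A, and Dusp6, which switches off ERK, at 99.1 to 178.4 against 39.0 to 55.9. Of 12 counted basic helix-loop-helix partners, 9 were lower and 1 was higher. Id2, an inhibitor of these factors, was at 47.4 to 109.0 against 1.36 to 2.94, while its relative Id1 was at no more than 104.1 outside set A and 176.3 to 182.2 within it.

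Of 13 neural stem cell genes 7 were lower in set A and 1 was higher. Fabp7 was at 75.8 to 155.2 CPM outside set A and 1.22 to 5.60 within it. Of 12 neuronal progenitor genes 8 were lower and 1 was higher, namely Tubb3, a neuronal tubulin, at 5.90 to 7.60 against 15.3 to 24.2. Within libraries, 3 of 11 genes of the PDGF list tested were lower in cycling cells and 0 higher, with a median log2 difference of -0.16. Over all 12413 genes tested, 10.3% were lower and 7.8% higher. Of the list, Pdgfrb, the other PDGF receptor and a gene of pericytes, was lower in cycling cells by a log2 difference of -3.30 ± 0.46 (SE, edgeR adjusted p = 0.000137). The part of mural cells in it was not tested. Spry1 and Etv1 of the same list were also called lower. The Spry1 call was lost in 3 of 14 alternatives (-0.024 at 1500 UMIs, edgeR adjusted p = 0.910) and that of Etv1 in 8 of 14.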
